A study of Mus musculus with 12 samples.

Results

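Cubn, Amn, Tcn2, Cd320 and Mmachc are 5 mouse genes that carry vitamin B12 (cobalamin) from the gut lumen into cells. They were taken by symbol from the 19012 gene symbols of the deposited expression tables, and each had 1 transcript there. Poly(A) RNA had been sequenced in 12 libraries of mouse small intestine. The 3 tissues were organoids (epithelium grown from the intestine and kept in culture for 12 weeks), freshly isolated villi and freshly isolated crypts. Each tissue came from ileum, jejunum and duodenum. Organoids and villi had 1 library per origin, and crypts had 2. The labels give no strain, age, sex, genotype or treatment, and they do not say whether replicates came from separate animals. All p-values therefore measure the spread between these libraries, which may be technical. Levels are given as RPKM, read density per kilobase of exon scaled to the depth of the library, so that levels of different genes are compared per length.

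Vitamin B12 from food is bound by intrinsic factor, a protein secreted in the stomach. The complex is taken up at the brush border of enterocytes, mainly in the distal small intestine, by a receptor called cubam. Cubilin, the product of Cubn, binds the complex, and amnionless, the product of Amn, anchors cubilin in the membrane and brings it to the cell surface. The vitamin is freed in the lysosome and leaves the cell on the serum carrier transcobalamin, the product of Tcn2. Other cells take up transcobalamin with its vitamin through the receptor encoded by Cd320. Inside the cell, the protein encoded by Mmachc strips the vitamin of its upper ligand, so that it can serve methionine synthase and methylmalonyl-CoA mutase.

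In the mm9 coordinates of the tables, Cubn lies on chromosome 2 at 13197964 to 13413502 on the minus strand, with 11325 exon bases. Amn lies on chromosome 12 at 112509321 to 112514636 on the plus strand, with 1685 exon bases. Tcn2 lies on chromosome 11 at 3817192 to 3831585 on the minus strand, with 1878 exon bases. Cd320 lies on chromosome 17 at 33980035 to 33986718 on the plus strand, with 2209 exon bases. Mmachc lies on chromosome 4 at 116375038 to 116380989 on the minus strand, with 1930 exon bases. None of these spans overlapped another gene symbol of the tables.

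The promoter windows of Cubn and Amn are shown because the receptor's components moved together across the libraries, and that of Mmachc because its human counterpart is a known target of the transcription factors ZNF143 and THAP11. They come from RefSeq on GRCm38.p6, a later build than the tables', and run from 250 bases before the annotated start to 50 after it, 5′ to 3′ on the gene's strand. Windows were found for 4 of the 5 genes (Cd320 had several starts). Capitals mark matches to a searched motif. Cubn is at chr2:13491827-13492126 (minus strand), Amn at chr12:111270846-111271145 (plus strand) and Mmachc at chr4:116708336-116708635 (minus strand).
Cubn: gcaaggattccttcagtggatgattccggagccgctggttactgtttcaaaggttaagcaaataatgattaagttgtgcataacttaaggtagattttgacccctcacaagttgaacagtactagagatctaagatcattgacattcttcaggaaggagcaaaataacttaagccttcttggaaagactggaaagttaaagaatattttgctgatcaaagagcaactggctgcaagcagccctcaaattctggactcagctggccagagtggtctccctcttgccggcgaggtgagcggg
Amn: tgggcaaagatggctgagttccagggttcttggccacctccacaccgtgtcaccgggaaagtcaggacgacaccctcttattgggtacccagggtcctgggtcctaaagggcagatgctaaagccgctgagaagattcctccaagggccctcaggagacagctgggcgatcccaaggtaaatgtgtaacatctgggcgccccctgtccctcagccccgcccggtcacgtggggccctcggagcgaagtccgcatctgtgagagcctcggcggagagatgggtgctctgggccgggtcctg
Mmachc: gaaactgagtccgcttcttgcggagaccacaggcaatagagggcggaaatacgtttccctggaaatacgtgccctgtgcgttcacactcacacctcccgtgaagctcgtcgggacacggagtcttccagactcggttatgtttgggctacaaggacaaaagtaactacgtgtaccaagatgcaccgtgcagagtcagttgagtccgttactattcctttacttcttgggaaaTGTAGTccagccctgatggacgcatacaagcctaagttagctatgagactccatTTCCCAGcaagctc

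Short motifs of transcription factors of the intestinal epithelium were searched on both strands in the 5 windows of the 4 genes. The letters CAAAGTC of an HNF4 motif were in none of them. The same held for TTTATNG, a motif of the CDX factors, for AGATAA, a motif of the GATA factors, and for GTTAAT, a partial site of HNF1. Of 32544 promoter windows of the same length, 4.47% held the HNF4 letters, 10.8% the CDX letters, 11.2% the GATA letters and 7.13% the HNF1 letters. Both ends of the element known to be bound by ZNF143 and THAP11 were also searched, a choice made after the sequences had been seen. In the Mmachc window the upstream end, ACTACA, was found on the other strand, where it reads TGTAGT from base -18 relative to the start. The downstream end, TTCCCAG, began at base 36 on the gene's own strand. These matches lay apart and on opposite strands, so they are not the ends of a single element. Of all windows, 10.3% held the upstream letters and 11.02% held the downstream letters, and a match is only a description of these letters.

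Depth and cell makeup differed between the libraries. The values came from 5268480 to 18591819 reads per library, of which 44.3% to 75.8% fell in annotated genes. The 2 crypt libraries of each origin did not hold the same mixture of cells. Of 17 enterocyte markers measured (18 listed), 17 were higher in crypt replicate 2 than in replicate 1 in each origin, by a median of 2.98 log2 units in ileum, 3.22 in jejunum and 3.32 in duodenum. Summed enterocyte markers came to 10458 to 27041 RPKM in crypt replicate 2 and 1097 to 2341 RPKM in replicate 1, beside 5768 to 8305 RPKM in organoids and 53095 to 114040 RPKM in villi. The comparisons of the 5 genes between crypts and the other tissues are therefore also given with 1 crypt replicate at a time. The bile acid binding protein Fabp6, a marker of ileum, reached 24599 RPKM in ileal villi but 4.12 RPKM in ileal organoids. In bulk tissue, fewer cells of a type and less RNA per cell cannot be told apart.

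Cubn was high in villi, variable in crypts and close to absent in organoids. Organoids had 0.0961 RPKM in ileum (15 reads), 0.0332 RPKM in jejunum (7 reads) and 0.0163 RPKM in duodenum (2 reads). Villi had 58.4 RPKM in ileum, 40.1 RPKM in jejunum and 32.6 RPKM in duodenum. Crypt replicates 1 and 2 had 1.34 and 24.7 RPKM in ileum, 1.02 and 14.1 RPKM in jejunum, and 0.0838 and 1.81 RPKM in duodenum. Villi were above every crypt library, the ileal crypt library of replicate 2 being the nearest. Organoids lay below all crypt libraries other than duodenal crypt replicate 1, whose counting interval overlapped that of each of the 3 organoid libraries. Such overlap is not a test of a difference. The 95% counting intervals were 0.0538 to 0.159 RPKM in ileal organoids, 0.0134 to 0.0685 RPKM in jejunal organoids and 0.00197 to 0.0589 RPKM in duodenal organoids, beside 0.0272 to 0.196 RPKM in that crypt library (exact Poisson intervals, covering counting error only).

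Amn, the partner of Cubn, had the same order of tissues over a narrower range. Organoids had 7.75 RPKM in ileum, 4.95 RPKM in jejunum and 8.66 RPKM in duodenum. Villi had 231 RPKM in ileum, 166 RPKM in jejunum and 139.8 RPKM in duodenum. Crypt replicates 1 and 2 had 15.5 and 82.0 RPKM in ileum, 18.0 and 65.3 RPKM in jejunum, and 15.4 and 27.6 RPKM in duodenum. The 3 tissues did not overlap: every organoid library was below every crypt library, and every villus library was above them. Unlike Cubn, Amn was still well measured in organoids, with at least 155 reads in each.

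Tcn2, the carrier on which the vitamin leaves the enterocyte, was the most abundant of the 5 genes per length in every library. Organoids had 46.6 RPKM in ileum, 47.2 RPKM in jejunum and 41.6 RPKM in duodenum. Villi had 499.9 RPKM in ileum, 355 RPKM in jejunum and 284 RPKM in duodenum. Crypt replicates 1 and 2 had 31.0 and 167 RPKM in ileum, 36.0 and 98.6 RPKM in jejunum, and 28.0 and 95.9 RPKM in duodenum. Villi again stood above all other libraries, whereas organoids fell between the crypt replicates, above each replicate 1 and below each replicate 2. Endothelial cells are another source of transcobalamin. The summed RPKM of 7 endothelial markers was 3.76 to 6.19 in organoids, 1.75 to 2.82 in villi and 2.02 to 4.73 in crypts. Of these markers, Cdh5 and Kdr were at 0 in all organoid libraries and also in all crypt libraries other than duodenal replicate 1, whereas Egfl7 was at 1.59 to 4.98 RPKM and Esam1 (now Esam) at 1.02 to 2.13 RPKM in organoids. The part of such cells in the Tcn2 values was not tested.

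Cd320, the receptor for transcobalamin, ran in the opposite order. Organoids had 19.6 RPKM in ileum, 11.9 RPKM in jejunum and 27.5 RPKM in duodenum. Villi had 1.27 RPKM in ileum, 1.17 RPKM in jejunum and 1.14 RPKM in duodenum. Crypt replicates 1 and 2 had 8.55 and 3.74 RPKM in ileum, 8.25 and 3.52 RPKM in jejunum, and 8.25 and 11.4 RPKM in duodenum. All organoid libraries were above all crypt libraries, and all crypt libraries were above all villus libraries.

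Mmachc, the cytosolic chaperone, followed Cd320. Organoids had 17.0 RPKM in ileum, 12.4 RPKM in jejunum and 18.7 RPKM in duodenum. Villi had 1.28 RPKM in ileum (30 reads), 0.526 RPKM in jejunum (13 reads) and 0.277 RPKM in duodenum (7 reads). Crypt replicates 1 and 2 had 6.43 and 3.48 RPKM in ileum, 7.78 and 3.42 RPKM in jejunum, and 5.31 and 9.40 RPKM in duodenum. The tissues did not overlap for this gene either.

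**Figure D1:**
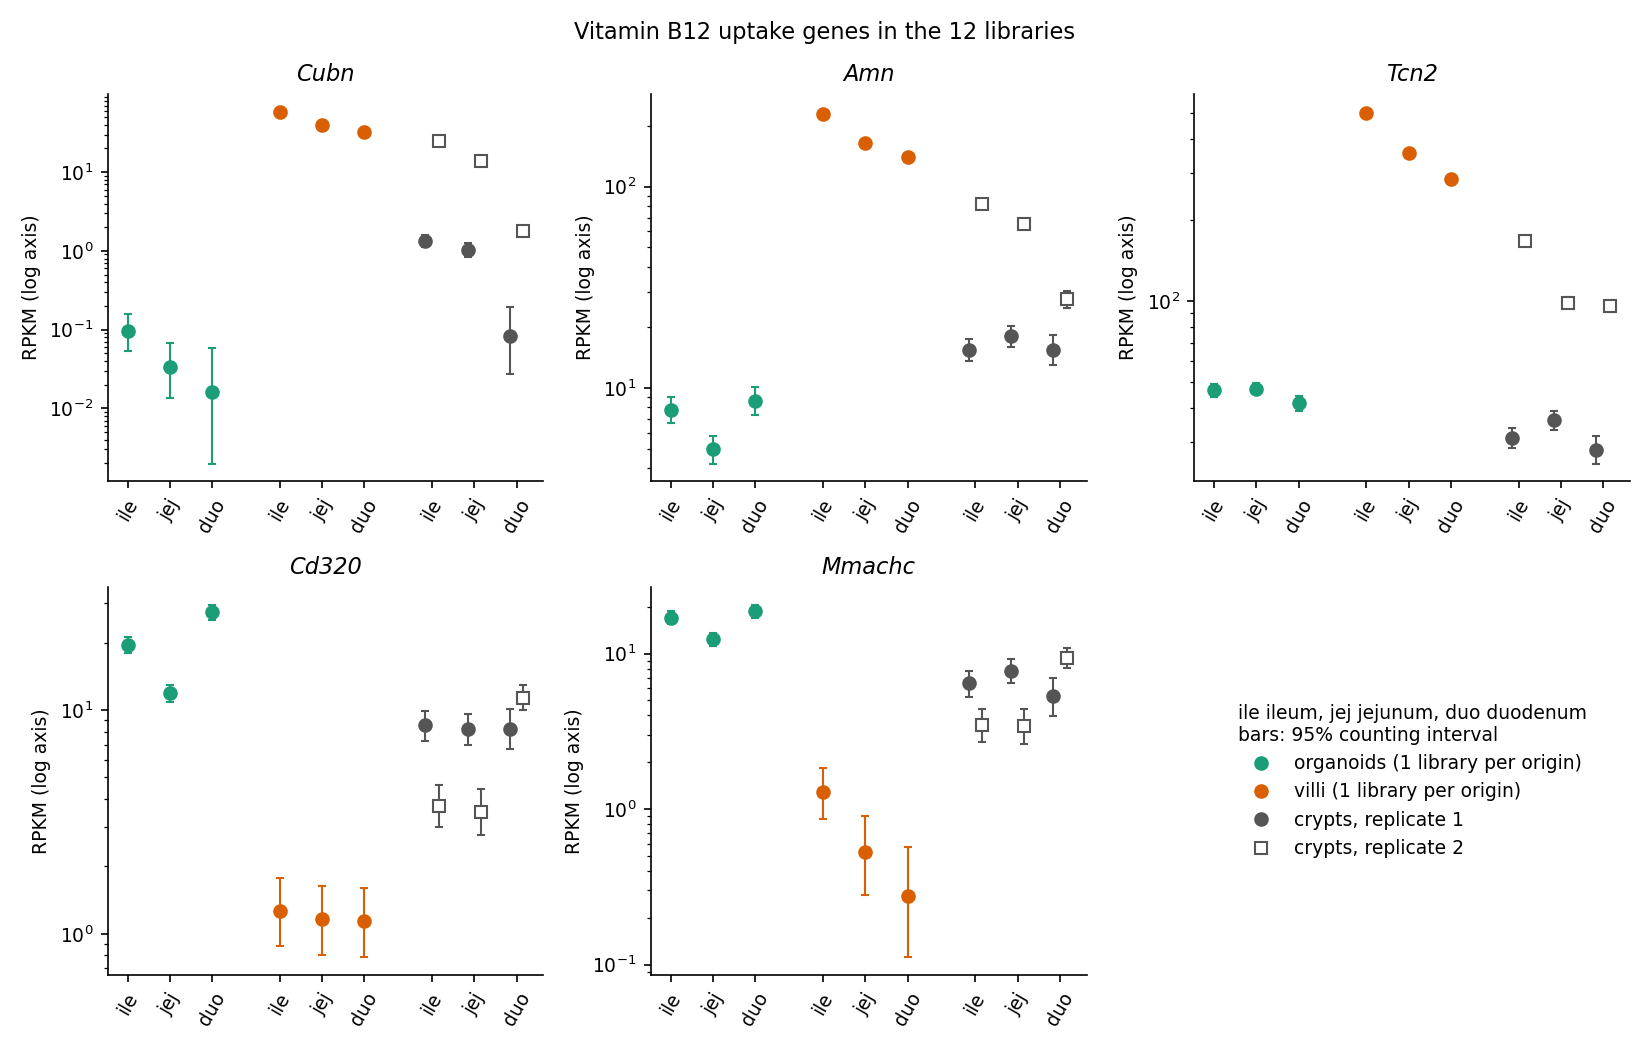
RPKM of the 5 genes in each of the 12 libraries, on a log axis per gene, with organoids at the left, villi in the middle and crypts at the right, and ileum, jejunum and duodenum within each tissue. Points are single libraries (filled and open for crypt replicates 1 and 2) and bars are 95% counting intervals. Cubn, Amn and Tcn2 peak in villi, at 58.4, 231 and 499.9 RPKM in ileum, whereas Cd320 and Mmachc are lowest there and highest in organoids.

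Villi were compared with crypts to ask how the genes differ between mature and progenitor compartments. Cubn averaged 43.7 ± 13.3 RPKM in villi (SD over 3 libraries) and 7.17 ± 10.05 RPKM in crypts (SD over 6), a 6.10-fold difference of means. Amn was 4.79-fold and Tcn2 4.99-fold higher in villi. Cd320 averaged 1.19 ± 0.0684 RPKM in villi and 7.28 ± 3.06 RPKM in crypts, and Mmachc 0.695 ± 0.524 RPKM in villi and 5.97 ± 2.38 RPKM in crypts. All 5 genes passed the test, a limma model of tissue and origin on log2(RPKM + 1) with Benjamini-Hochberg adjustment over 11690 genes at a threshold of 0.05. In that comparison 53.4% of all genes tested passed, 20.5% higher and 32.8% lower in villi.

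The balance of higher and lower calls over all genes depended on the scaling, whereas the 5 genes kept their directions. Of the calls in villi against crypts 38.5% were higher, 26.4% when libraries were scaled to their reads in annotated genes and 54.9% with median-of-ratios factors, and the median of all genes was -0.20, -0.43 and 0.03 log2 units under these scalings. Relative to that median, Cubn was higher in villi by 3.54 to 3.71, Amn by 2.59 to 2.88 and Tcn2 by 2.64 to 2.94. Cd320 was at -1.66 to -1.61 and Mmachc at -1.86 to -1.81.

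On the log2(RPKM + 1) scale, which understates the change of low genes, Cubn was higher in villi by 3.37 (SE 0.73, adjusted p = 0.00184). Amn was higher by 2.53 (SE 0.50, adjusted p = 0.000981) and Tcn2 by 2.58 (SE 0.51, adjusted p = 0.00103). Cd320 differed by -1.82 (SE 0.31, adjusted p = 0.000375) and Mmachc by -2.01 (SE 0.32, adjusted p = 0.000201). The size of the Cubn difference depended on the crypt replicate, at 4.65 with replicate 1 and 2.08 with replicate 2, that of Amn at 3.35 and 1.70, and that of Tcn2 at 3.51 and 1.66. Cd320 and Mmachc moved less, between -2.09 and -1.55 for Cd320 and between -2.18 and -1.84 for Mmachc.

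Markers of some other cells moved with this comparison. Summed proliferation markers (5 measured of 7 listed) came to 3.32 to 15.9 RPKM in villi and 77.9 to 188 RPKM in crypts, and 8 stem cell markers to 18.8 to 41.8 RPKM in villi and 111 to 1210 RPKM in crypts. Villi also held more RNA of lymphocyte markers, with 23.0 to 38.7 RPKM over 5 markers, against 0 to 1.45 RPKM in crypts. Smooth muscle markers went the same way, with 24.7 to 70.3 RPKM over 5 markers, against 1.04 to 9.46 RPKM in crypts. Fibroblast markers did too, at 1.41 to 2.68 RPKM against 0.0226 to 0.830 RPKM. Macrophage markers overlapped, at 19.3 to 27.4 RPKM in villi and 6.79 to 22.8 RPKM in crypts. Endothelial markers overlapped as well, at 1.75 to 2.82 RPKM in villi and 2.02 to 4.73 RPKM in crypts. The part of these cells in the difference of Cd320 and Mmachc was not tested.

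Organoids were compared with crypts, the tissue that holds the progenitors in vivo. Cubn averaged 0.0486 ± 0.0420 RPKM in organoids (SD over 3 libraries) against 7.17 RPKM in crypts, and Amn 7.12 ± 1.93 RPKM against 37.3 ± 29.0 RPKM. Tcn2 averaged 45.1 ± 3.09 RPKM in organoids and 76.1 ± 55.0 RPKM in crypts. Cd320 was 2.70-fold higher in organoids, at 19.7 ± 7.78 RPKM, and Mmachc 2.69-fold higher, at 16.0 ± 3.28 RPKM. In limma 4 of the 5 genes passed, 2 in each direction, where 47.7% of all genes passed (23.4% higher and 24.2% lower in organoids). Higher calls made up 49.2% of these, and 36.9% when libraries were scaled to their reads in annotated genes, with the same 4 of the 5 genes called.

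Cubn fell by 2.01 log2 units in organoids (SE 0.73, adjusted p = 0.0364) and Amn fell by 1.94 (SE 0.50, adjusted p = 0.00626). Cd320 was higher by 1.34 (SE 0.31, adjusted p = 0.00356) and Mmachc by 1.34 (SE 0.32, adjusted p = 0.0038). Tcn2 did not pass, at -0.42 (SE 0.51, adjusted p = 0.515, 95% interval -1.52 to 0.68). Its sign followed the crypt replicate: it was 0.50 with replicate 1 alone (adjusted p = 0.0942) and -1.35 with replicate 2 alone (adjusted p = 0.00103). The Cubn difference was -0.72 with replicate 1 (adjusted p = 0.0242) and -3.29 with replicate 2 (adjusted p = 0.00019), and the Amn difference -1.12 (adjusted p = 0.00299) and -2.76 (adjusted p = 5.04e-05). With replicates 1 and 2, Cd320 was at 1.07 and 1.61 and Mmachc at 1.18 and 1.51. Since Cubn was under 0.1 RPKM in all organoid libraries, the added 1 RPKM sets the size of its difference, which was -4.06 with 0.1 added and -5.94 in limma-voom on the recovered reads.

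The call for Cubn was not stable to single libraries. It was lost without the ileal organoid library (adjusted p = 0.178), the jejunal organoid library (adjusted p = 0.135), crypt replicate 2 of duodenum (adjusted p = 0.0621), crypt replicate 2 of jejunum (adjusted p = 0.0594) and the duodenal villus library (adjusted p = 0.0506). It was also lost when low genes were kept (adjusted p = 0.0957) or the variance trend was left out (adjusted p = 0.0542). With the replicate block the Cubn call held, at an SE of 0.38 (limma adjusted p = 0.000542). Amn lost its call without the jejunal organoid library (adjusted p = 0.0536). Enterocyte markers moved with these genes between the crypt replicates, and their part in the differences was not tested.

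Organoids were set against villi to compare cultured with mature epithelium. All 5 genes passed in limma, where 62% of all genes did (36.2% higher and 25.8% lower in organoids). Cubn fell by 5.37 log2 units (SE 0.84, adjusted p = 0.000124), Amn by 4.47 (SE 0.57, adjusted p = 2.87e-05) and Tcn2 by 3.01 (SE 0.59, adjusted p = 0.000679). Cd320 was higher in organoids by 3.16 (SE 0.36, adjusted p = 1.25e-05) and Mmachc by 3.35 (SE 0.36, adjusted p = 9.09e-06). As ratios of mean RPKM, organoids held 0.00111 of the villus level of Cubn, 0.0398 of that of Amn and 0.119 of that of Tcn2, but 16.5 times that of Cd320 and 23.1 times that of Mmachc. Markers of other cells moved with this comparison too. Summed proliferation markers came to 121 to 197 RPKM in organoids and 3.32 to 15.9 RPKM in villi, stem cell markers to 578 to 744 RPKM in organoids and 18.8 to 41.8 RPKM in villi, and Paneth cell markers to 7845 to 30320 RPKM in organoids and 70.3 to 1042 RPKM in villi. Lymphocyte markers came to at most 0.151 RPKM in organoids, against 23.0 to 38.7 RPKM in villi. The part of these cells in the differences was not tested. The tissue comparisons share libraries, so they are not independent of each other.

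**Figure D2:**
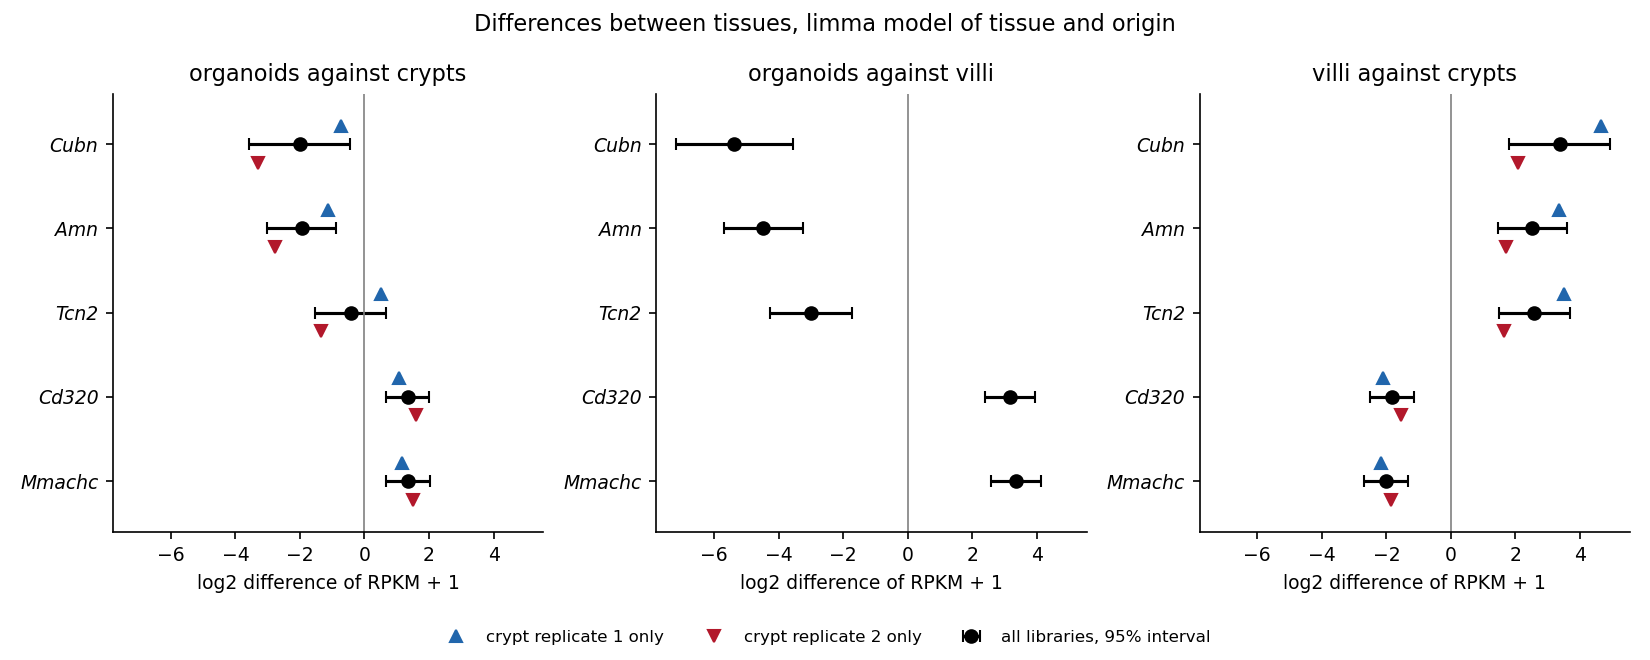
Differences of the 5 genes in log2(RPKM + 1) for organoids against crypts, organoids against villi and villi against crypts. Black points are limma estimates from all 12 libraries with 95% intervals, and triangles the estimates with crypt replicate 1 (pointing up) or replicate 2 (pointing down) alone. In the left panel the triangles of Tcn2 lie on either side of 0, at 0.50 and -1.35, and in the right panel all triangles lie on the same side of 0 as their black point.

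The balance within the cubam receptor also differed between tissues. In villi Amn stood at 3.95 times the RPKM of Cubn in ileum, 4.13 times in jejunum and 4.29 times in duodenum. In organoids it stood at 80.7 times in ileum, 149 times in jejunum and 531 times in duodenum, where the Cubn value rests on 2 reads. In crypts the ratio was 11.5, 17.6 and 184 in replicate 1 of ileum, jejunum and duodenum, and 3.32, 4.64 and 15.3 in replicate 2. Thus the ratio was near constant along the villi, and the duodenum had the highest ratio in each set of libraries.

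Levels were also set against Vil1, which encodes villin, a structural protein of the brush border. Vil1 was at 32.5 to 44.0 RPKM in organoids and 649.7 to 932 RPKM in villi. Per 1000 RPKM of Vil1, organoids had 2.96 RPKM of Cubn in ileum, 0.756 in jejunum and 0.499 in duodenum, against 62.6, 43.0 and 50.1 in villi of the same origins. Amn per Vil1 did not separate these tissues, at 239, 112 and 265 in organoids and 248, 178 and 215 in villi. Tcn2 per Vil1 was higher in organoids, at 1434, 1073 and 1274, against 536, 381 and 437 in villi. Relative to Vil1, organoids and villi thus overlapped in Amn, while organoids lay below villi in Cubn and above them in Tcn2. Crypts ranged in Cubn from 1.46 per 1000 RPKM of Vil1 in duodenal replicate 1 to 62.3 in ileal replicate 2. The first value lay within the organoid range and the second within the villus range.

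**Figure D3:**
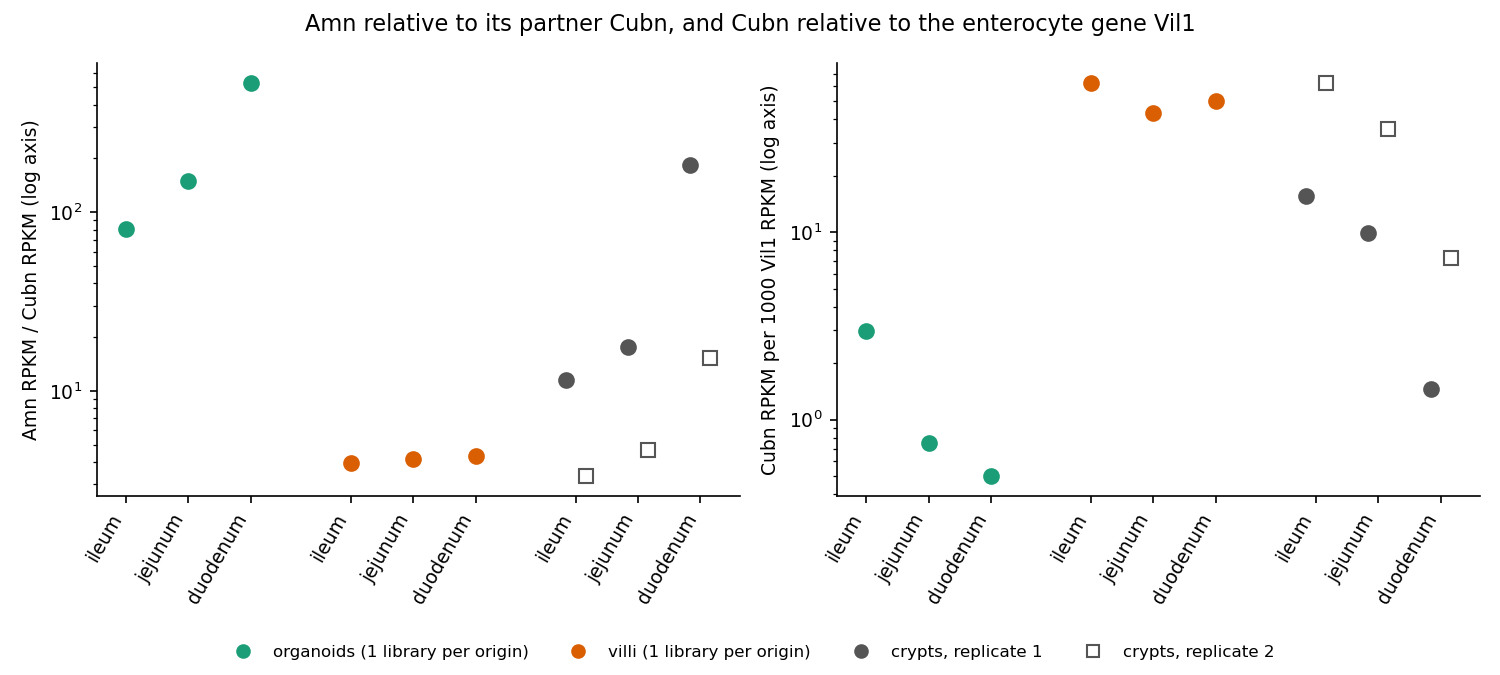
RPKM of Amn divided by that of Cubn (left) and RPKM of Cubn per 1000 RPKM of Vil1 (right) in each library, both on log axes, with organoids, villi and crypts from left to right. The 3 villus libraries lie together at 3.95 to 4.29 on the left, while organoids reach 80.7 to 531 there and only 0.499 to 2.96 on the right. Crypts run from 3.32 to 184 on the left and from 1.46 to 62.3 on the right. Duodenal crypt replicate 1, at 184 and 1.46, lies within the organoid range in both panels.

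Along the intestine, Cubn was highest in ileum and lowest in duodenum in each tissue and each crypt replicate. In crypts, ileum had 16.0 times the Cubn of duodenum in replicate 1 (where duodenum had 5 reads) and 13.7 times in replicate 2, and in villi 1.79 times. In jejunal crypts Cubn was at 12.2 and 7.78 times the duodenal level. Amn in ileum was at 0.895 times the duodenal level in organoids, 1.65 times in villi, and 1.002 and 2.97 times in crypt replicates 1 and 2. Tcn2 was at 1.12 times the duodenal level in ileal organoids, 1.76 times in villi, and 1.11 and 1.74 times in the crypt replicates.

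None of the 5 genes passed the limma test of ileum against duodenum over all libraries, where 0.676% of all genes passed (79 genes, and 303 with the replicate number as a block). Cubn had the largest estimate of the 5, at 1.31 log2 units (SE 0.73, 95% interval -0.26 to 2.88, unadjusted p = 0.0945, adjusted p = 0.743). With the replicate block its SE was 0.38, its 95% interval 0.50 to 2.12 and its adjusted p = 0.102. It was 0.68 with crypt replicate 1 only (adjusted p = 0.206) and 1.38 with replicate 2 only (adjusted p = 0.281), and 0.54 to 1.84 when a library was left out, lowest without crypt replicate 2 of ileum and highest without crypt replicate 1 of ileum. Amn was at 0.53, Tcn2 at 0.48, Cd320 at -0.43 and Mmachc at -0.07, each with adjusted p of at least 0.913. In crypts alone, where 0.0354% of 11297 genes passed (4 genes, and 37 with the block), Cubn was at 2.15 (SE 1.31, 95% interval -0.95 to 5.25, adjusted p = 1), and with the block the SE was 0.51, the 95% interval 0.93 to 3.38 and the adjusted p = 0.227. Leaving out the same ileal crypt libraries gave 0.43 and 3.88. The intervals for Cubn thus held 0 without the block and lay above 0 with it, while no adjusted p passed.

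The other comparisons along the intestine gave no call among the 5 genes in limma. For jejunum against duodenum 0% of genes passed (0 genes, 338 at an unadjusted p under 0.05, 4 in limma-voom and 13 with the block). The estimate nearest the threshold was Cd320 at -0.64 (SE 0.31, unadjusted p = 0.0588). For ileum against jejunum 0.0428% of genes passed (5 genes, and 31 with the block). Whether the ileal excess of Cubn over duodenum differed between tissues was tested directly. The organoid minus crypt difference of Cubn was -2.04 (SE 2.33, adjusted p = 1) and the villus minus crypt difference -1.33 (SE 2.33, adjusted p = 1), neither of which passed. With the replicate block the SE of both differences was 0.91. Their 95% intervals were then -4.29 to 0.21 and -3.58 to 0.92, which both held 0. With Cubn under 0.1 RPKM in organoids, the added 1 RPKM holds the organoid term near 0, although the ratio of ileum to duodenum there was 5.89 (15 against 2 reads). In limma-voom the organoid minus crypt difference of Cubn was -1.16, and leaving out a library gave -3.77 to -0.32. No gene passed either of these tests in limma or in limma-voom, with 182 and 294 genes at an unadjusted p under 0.05.

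The crypt libraries also differed from each other within an origin. Cubn was higher in replicate 2 than in replicate 1 by 3.45 log2 units in ileum, 2.90 in jejunum and 1.37 in duodenum. Amn was higher by 2.33, 1.80 and 0.80, and Tcn2 by 2.39, 1.43 and 1.74, in the same order of origins. Cd320 was lower in replicate 2 of ileum and jejunum, by -1.01 and -1.03, but higher by 0.42 in duodenum. Mmachc did the same, at -0.73, -0.99 and 0.72. Of the 5 proliferation markers measured, 5 were higher in replicate 2 of duodenum (median 1.15), 5 were lower in that of jejunum (median -0.36), and 3 were higher in that of ileum (median 0.01). The 8 stem cell markers had medians of -1.03 in ileum, -0.81 in jejunum and -0.14 in duodenum. Duodenal crypt replicate 2 had the highest summed proliferation markers of the crypts, at 188 RPKM, and also their highest Cd320 and Mmachc. Duodenal crypt replicate 1 had the lowest sum, at 77.9 RPKM. Its Cd320 and Mmachc, at 8.25 and 5.31 RPKM, were nevertheless above those in replicate 2 of jejunum and ileum.

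**Figure D4:**
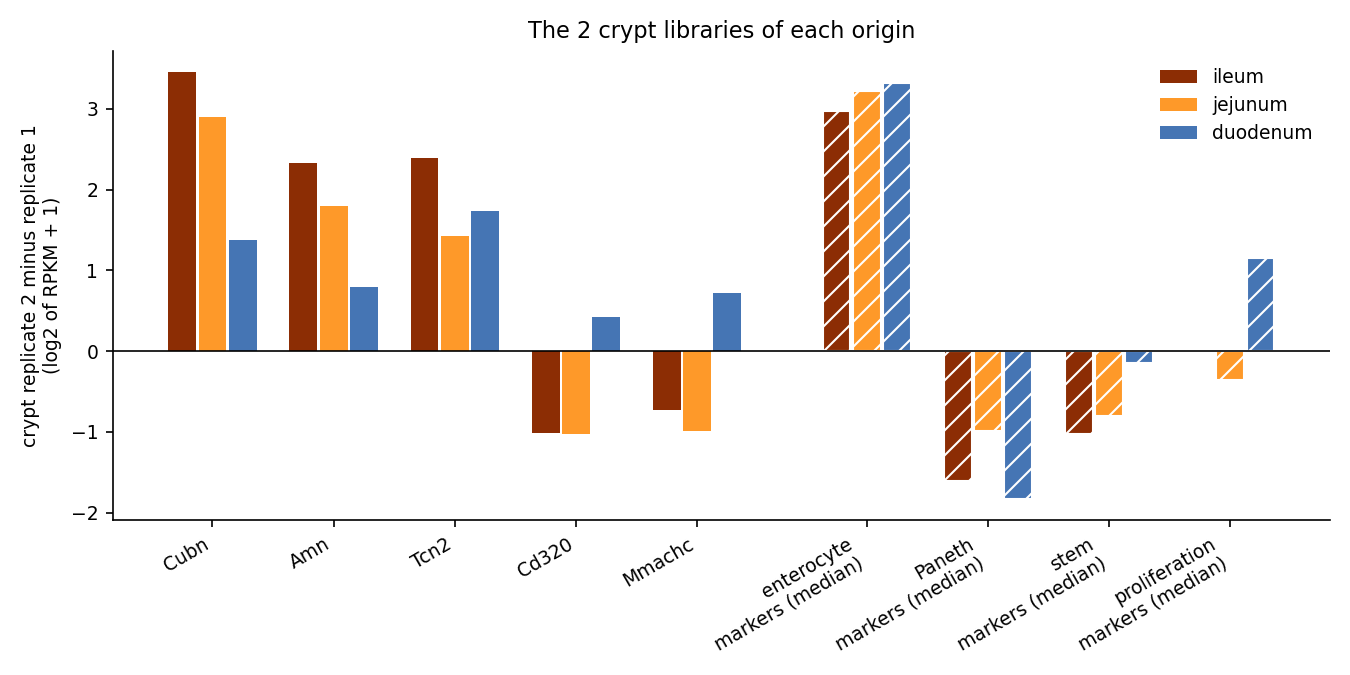
Difference between the crypt libraries of each origin, replicate 2 minus replicate 1, in log2(RPKM + 1), for the 5 genes (plain bars) and as the median of 4 marker lists (hatched bars). Cubn, Amn, Tcn2 and the enterocyte markers are above 0 in every origin, while Cd320, Mmachc and the median of the proliferation markers are above 0 by more than 0.4 in duodenum only.

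Across the 12 libraries the 5 genes fell into an upper and a lower set. Pearson's r of log2(RPKM + 1) was 0.98 between Amn and Cubn, 0.94 between Cubn and Tcn2 and 0.92 between Amn and Tcn2. It was 0.98 between Cd320 and Mmachc, and -0.93 between Cd320 and Cubn. The libraries share tissues and origins, so these values describe the 12 libraries only.

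Of 8454 genes reaching 5 RPKM in some library, those most like Cubn were A130092J06Rik (now Fam78a), Ceacam20 and Ablim1, an actin-binding protein, each with r of 0.99. Those most like Amn were Spint1, a protease inhibitor, the zinc importer Slc39a4 and the brush border scaffold Slc9a3r1, each with r of 0.99. Tcn2 was most like the peptidase Pepd (r of 0.99), the motor protein Myo5b (r of 0.99) and the glycosyltransferase Mgat3 (r of 0.98). Cd320 was most like Mmachc itself, the transcription factor Etv4 and Atxn10, each with r of 0.98. Mmachc was most like Prps2, which makes a nucleotide precursor, the nuclear pore gene Nup43 and the DNA replication factor Rfc4, each with r of 0.99.

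The remaining steps of vitamin B12 handling were followed in a list of 33 further genes, of which 31 were high enough to be tested. In villi against crypts 6 were higher (19.4%) and 15 lower (48.4%), beside 20.5% and 32.8% of all genes, with a median of -0.43 log2 units beside -0.20 for all genes tested. In organoids against crypts 8 were higher (25.8%) and 7 lower (22.6%), shares near the 23.4% and 24.2% of all genes, with a median of 0.21 beside 0.00. In organoids against villi 14 were higher (45.2%) and 4 lower (12.9%), beside 36.2% and 25.8% of all genes, with a median of 0.60 beside 0.22. With crypt replicate 1 only, the counts were 10 higher and 5 lower in organoids against crypts and 6 and 16 in villi against crypts, and with replicate 2 only 7 and 7, and 5 and 14. None of them passed between origins.

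Among carriers and uptake genes, Gif (intrinsic factor, now Cblif) was at 0.521, 2.11 and 2.47 RPKM in organoids of ileum, jejunum and duodenum and at 0 RPKM in all 3 villus libraries. It was higher in organoids than in crypts by 0.92 (adjusted p = 0.0125), where crypts held 0 to 1.49 RPKM. Lrpap1, a chaperone of receptors of the LDL receptor family, was higher in organoids by 1.02 and fell by 0.59 in villi, both relative to crypts. The exporter Abcc1, through which free cobalamin can leave cells, fell by 1.04 in villi relative to crypts. Lrp2 (megalin), which takes up transcobalamin in the kidney, was at or below 0.0151 RPKM in every library and was not tested. Dab2, an adaptor of cubilin in the kidney, stayed at or below 0.675 RPKM in organoids, 0.475 RPKM in villi and 0.252 RPKM in crypts.

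Of the 4 lysosomal genes, 3 were higher in villi than in crypts, namely the membrane protein Lamp1 by 1.65, the protease Ctsl by 1.44 and the cobalamin exporter Lmbrd1 by 0.99, where 20.5% of all genes were higher. Ctsl was also higher in organoids than in crypts, by 1.54. Abcd4, the partner of Lmbrd1 in export from the lysosome, did not pass there at 0.07 (adjusted p = 0.798) but fell by 1.48 in organoids relative to crypts. In RPKM, Abcd4 was at 2.91, 2.51 and 1.73 in organoids of ileum, jejunum and duodenum, against 12.0, 8.64 and 6.49 in villi. Lmbrd1 was at 9.27, 8.06 and 5.15 RPKM in organoids, against 10.6, 10.1 and 13.1 RPKM in villi.

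None of the chaperones and enzymes that follow Mmachc was called higher in villi than in crypts. Of all genes tested, 20.5% were called higher there and 32.8% lower. Among 4 chaperones, Mmab fell by 1.24, Mtrr by 1.06 and Mmaa by 0.74 in villi relative to crypts, and 2010311D03Rik (now Mmadhc), the direct partner of Mmachc, was at -0.08 (adjusted p = 0.854). In organoids relative to crypts Mmaa fell by 0.76 and Mmab by 0.74. Of 5 enzymes, Mcee and Pcca, which lead propionate to methylmalonyl-CoA mutase, fell in villi by 1.43 and 1.32. The mutase gene itself, Mut (now Mmut), did not pass in villi at -0.18 (adjusted p = 0.629) and was higher in organoids than in crypts by 0.78 (adjusted p = 0.0422). Pccb, the partner subunit of Pcca in propionyl-CoA carboxylase, fell by 1.31 in organoids relative to crypts (adjusted p = 0.0115). Mcee was higher in organoids by 1.62, at 217, 121 and 234 RPKM in ileum, jejunum and duodenum, against 38.9 to 101 RPKM in crypts. Methionine synthase, Mtr, was below 1 RPKM in every library. It passed in none of the tissue comparisons on log2(RPKM + 1) with all libraries, a scale that understates the change of low genes. In limma-voom, all 5 enzymes passed in organoids against villi, Mtr among them, 4 higher and 1 lower in organoids. There 7431 of 11690 genes passed.

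Of the 3 genes for regulators of Mmachc, 1 passed a test. Among all genes tested, 53.4% passed in villi against crypts and 47.7% in organoids against crypts. Thap11 was at 0.03 in organoids and -0.05 in villi relative to crypts, and Zfp143, the mouse counterpart of ZNF143, at 0.51 (adjusted p = 0.112) and -0.09. Hcfc1, their co-factor, fell by 1.10 in organoids and by 1.17 in villi.

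The folate and methionine cycle meets vitamin B12 at methionine synthase. Of 11 of its genes tested, 3 were higher and 7 lower in villi than in crypts, where 20.5% of all genes were higher and 32.8% lower. The serine hydroxymethyltransferases Shmt1 and Shmt2 fell by 3.14 and 2.62, and the methionine adenosyltransferase Mat2a fell by 1.86. Mthfd1, which interconverts folate forms, was at -2.16, Ahcy, which splits S-adenosylhomocysteine, at -1.60, Cbs, which commits homocysteine to cysteine, at -1.501 and the folate carrier Slc19a1 at -1.07, all of them called lower in villi. The intestinal folate importer Slc46a1 was higher by 3.42 (adjusted p = 0.00123), Folr1 by 1.91 and Mat2b by 1.07. Slc46a1 ran along the villi in the opposite order to Cubn, at 42.4 RPKM in ileum, 184 RPKM in jejunum and 548 RPKM in duodenum. Its ileum against duodenum difference over all libraries did not pass in limma. In organoids Slc46a1 was at 2.55 to 3.90 RPKM and fell by 1.89 relative to crypts (limma adjusted p = 0.0385), as did Shmt2, at -1.02. Crypt levels of Slc46a1 differed by replicate. Replicates 1 and 2 had 5.12 and 11.5 RPKM in ileum, 7.91 and 45.7 RPKM in jejunum, and 5.96 and 57.3 RPKM in duodenum. Mat2b, Folr1 and Slc19a1 were higher in organoids than in crypts, by 1.39, 1.27 and 1.04, so that 3 of the 11 were higher and 2 lower, where 23.4% and 24.2% of all genes were.

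**Figure D5:**
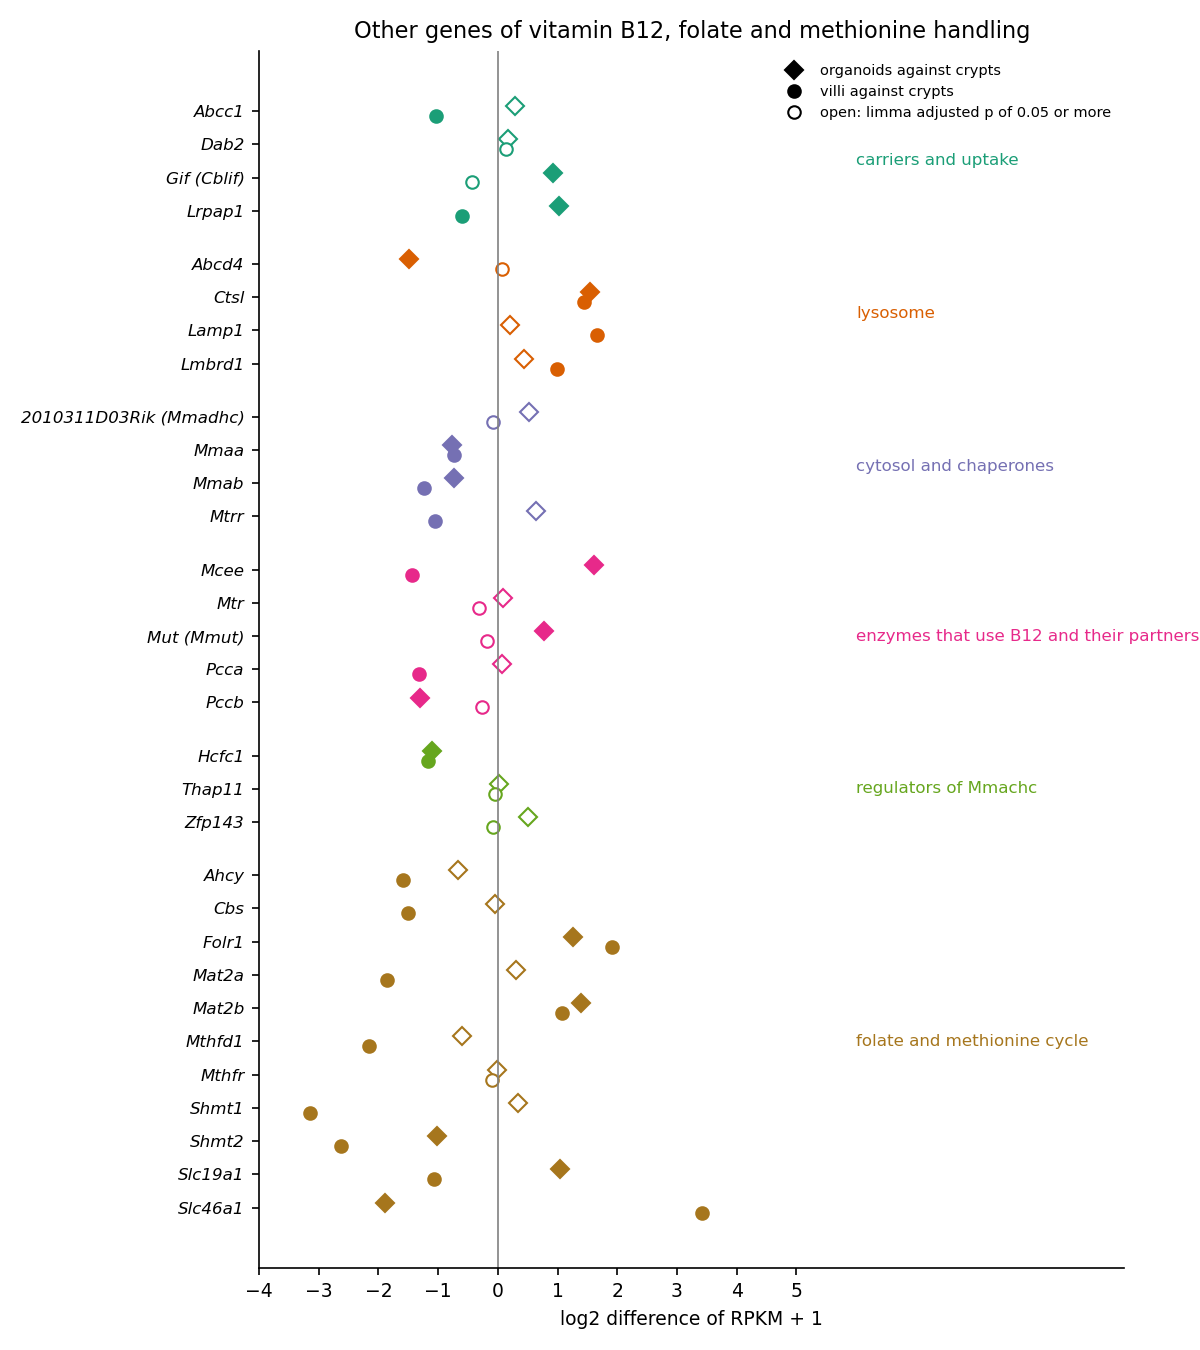
Differences in log2(RPKM + 1) of the 31 further genes tested, grouped by role, for organoids against crypts (diamonds) and villi against crypts (circles). Filled symbols passed the limma test at an adjusted p under 0.05. Slc46a1 has the largest villus difference at 3.42, Shmt1 the lowest at -3.14, and 3 of the 4 lysosomal genes lie to the right of 0 in villi as filled symbols.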

How the data were processed

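The authors' deposited tables give RPKM per RefSeq transcript and library, per the file headers. Reads of 50 bp came from a SOLiD 4, per the labels' protocols, and were aligned with BWA to mm9, per the submitters' processing notes. The sources used here do not state versions, gene models, how reads were counted or whether strand was used. The longest transcript stood for each of 19012 symbols (1520 had several). Since RPKM was deposited, no count test was the main one. RPKM and length gave back whole reads for at least 99.9535% of values per library (within 0.02 reads), which serve for depth, counting intervals and a limma-voom alternative.

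Tests used limma 3.58.1 (R 4.3.3) on log2(RPKM + 1) with a trend of variance on the mean, two-sided, Benjamini-Hochberg adjusted over all genes tested, at a threshold of 0.05. A gene was tested if its RPKM amounted to 10 reads of a library of median depth in 3 libraries (2 in crypts), with 15 reads in all. The model held tissue and origin, so origins serve as replicates of a tissue; crypts alone had 1 mean per origin, and differences between tissues used 9 group means, in which single libraries are assumed to vary like crypts. The script was tested on simulated data.

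The labels do not say whether crypt libraries with the same replicate number form a pair. Over 11297 genes, the difference between crypt replicates was correlated between origins. Pearson's r was 0.42 for jejunum and duodenum, 0.51 for ileum and duodenum and 0.79 for ileum and jejunum. Enterocyte markers were also higher in replicate 2 of each origin, and whether equal numbers are pairs was not tested. The block was therefore used as an alternative only. Others were pseudocounts of 0.1 and 0.5, no filter, 50 reads, other scalings, the mean over transcripts, limma-voom, no trend, 1 crypt replicate only, and leaving out each library. The 5 genes, the lists and the motifs were chosen with earlier results of these data known. Named genes are the 5, list genes past the threshold, a few others of each role, and the 3 genes most correlated with each of the 5. For Tcn2 no promoter window is shown, and 1 gene of the list is not reported here.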

Additional observations from a re-analysis of the deposited data

How the results depend on the processing

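Between tissues the directions of the 5 genes held under all 24 alternatives, except that Tcn2 in organoids against crypts reversed to 0.50 with crypt replicate 1 only (-0.42 with all libraries). All 5 calls in villi against crypts and in organoids against villi held. In organoids against crypts, leaving out a library gave 2 to 4 of the 5 called and 3574 to 6357 genes called (5572 with all). The calls among the 33 further genes in organoids against crypts became 5 higher and 9 lower when scaled to reads in annotated genes, and 10 higher and 8 lower with median-of-ratios factors.

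Differences along the intestine were less stable. Ileum against duodenum for Mmachc (-0.07) reversed to 0.15 with a pseudocount of 0.1, to 0.0014 with 0.5 and to 0.32 with crypt replicate 1 only. With that replicate only, jejunum against duodenum reversed to -0.081 for Amn and 0.058 for Mmachc. The villus minus crypt difference for Amn (-0.05) reversed to 0.034 when scaled to reads in annotated genes. None of these passed a test, and the cause was not tested.

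Leaving out libraries one at a time gave, for ileum against duodenum, 0.54 to 1.84 for Cubn and -0.31 to 0.16 for Mmachc. For jejunum against duodenum it gave -0.18 to 0.51 for Amn and -0.10 to 0.55 for Tcn2. For ileum against jejunum it gave -0.37 to 1.02 for Cubn, -0.15 to 0.72 for Amn, -0.19 to 0.70 for Tcn2 and -0.017 to 0.43 for Mmachc. In crypts, ileum against duodenum ran from 0.43 to 3.88 for Cubn, -0.40 to 1.94 for Amn and -0.73 to 1.67 for Tcn2. The organoid minus crypt difference ran from -2.08 to 0.25 for Amn, -1.51 to 0.89 for Tcn2, -0.30 to 0.71 for Cd320 and -0.0034 to 0.73 for Mmachc. The villus minus crypt difference ran from -3.06 to 0.40 for Cubn, -1.22 to 1.12 for Amn and -0.85 to 1.54 for Tcn2. Leaving out an ileal or duodenal organoid or villus library left its own difference without a value.

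Genes called, ileum against duodenum (79), were 17 with no filter, 122 in limma-voom, 153 with crypt replicate 2 only, 49 with no trend and 35 to 99 when a library was left out. Genes called, jejunum against duodenum (0), were 4 in limma-voom, 1 and 11 with crypt replicate 1 or 2 only and 0 to 7 when a library was left out. Genes called, ileum against jejunum (5), were 9 and 8 with pseudocounts of 0.1 and 0.5, 0 with no filter or no trend, 2 with crypt replicate 2 only and 0 to 11 when a library was left out. Genes called, ileum against duodenum in crypts (4), were 1 with a pseudocount of 0.1, 0 with no filter, 1 in limma-voom and 0 to 6 when a library was left out. Without the filter, 362 genes were called for the organoid minus crypt ileum-duodenum difference and 497 for the villus minus crypt ileum-duodenum difference, where the test with the filter called 0. With the replicate block these counts were 303, 13, 31 and 37 for the first 4 comparisons, and the block changed no call among the 5 genes.

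Depth limits Cubn in organoids, which rests on 2 to 15 reads per library, and Mmachc in villi, on 7 to 30 reads. With 1 organoid and 1 villus library per origin, no difference between origins within these tissues has an error of its own.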
